A study of Perna viridis with 2 samples.

Results

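Collagens and other extracellular matrix proteins were examined in the mantle of the green mussel Perna viridis. Expression had been measured by bulk RNA sequencing in tissue cut from the periostracal groove, the furrow that separates the outer from the middle fold, and from the submarginal zone, which lies inward of the folds up to the pallial line. Each region had 1 deposited profile of untreated tissue, made from mature, healthy animals of unknown genotype with shells of 6 to 7 cm. Per the design text, tissue of 6 animals was pooled in a sample. The same text names 3 biological replicates, and each value was taken as the authors' mean over these. Members were chosen by product name. A name had to contain collagen, hemicentin, nidogen, fibrillin, laminin, fibronectin, tenascin, matrilin, perlecan, SPARC, thrombospondin, fibulin or von Willebrand, or to begin with COL and a digit, HMCN, LAM or FBN, and papilins, PXDN and collagenases were left out. This gave 298 of 78458 assembled genes, all with a value in both regions.

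The extracellular matrix is the protein scaffold outside cells. Fibrillar collagens form its load-bearing fibres, collagen VI forms beaded filaments around cells, and laminin, collagen IV, nidogen and perlecan build the basement membrane, the thin sheet under epithelia. Hemicentins are very large immunoglobulin-repeat proteins that join basement membranes of neighbouring tissues, a role known from Caenorhabditis elegans and vertebrates, and matricellular proteins such as SPARC, thrombospondins and tenascins modify how cells attach. In the mantle, the epithelium that secretes the periostracum and shell lies on a bed of connective tissue and muscle.

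Values are in TPM (a length-adjusted share of all transcripts, scaled to the same total in each library), so levels of different genes can be set side by side. The value column bears the groove's sample name in each of the 2 tables, and the region was taken from the record that lists the table. An exchange of the tables would turn every direction below. The profiles carry no replicate values and TPM keeps no read depth, so the differences below come without a replicate check, an error or a test, and their precision is unknown. A gene was counted as 4-fold higher in a region when the log2 ratio of groove over submarginal zone, after adding 1 TPM to each, was at least 2 in size and the higher region reached 10 TPM. In bulk tissue, fewer cells of a type and less RNA per cell cannot be told apart.

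Of the 298 members, 173 reached 1 TPM in either region and 54 reached 10 TPM, while 6 were listed at 0 in both. Their summed share of the TPM total was 0.458% in the groove, against 0.6% in the submarginal zone. By family, the names gave 60 collagens, 128 basement membrane entries, 6 microfibril entries (fibrillin and fibulin), 58 matricellular entries, 18 adhesion and adaptor entries (fibronectin, matrilin and von Willebrand domains) and 28 entries of proteins that are no matrix component. Families follow words in the names, also within long lists of names. A family can thus hold entries that are not its typical proteins, and entries beyond the 28 may be no matrix component. An assembled gene is not always a whole gene, and 74 members shared a Trinity cluster number with another member, so some may be fragments or close copies that share reads. For 102 members the description lists 3 or more protein names, and these are given below by their first name or by their identifier only.

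Of the 54 members reaching 10 TPM, 8 (14.8%) were 4-fold higher in the groove and another 8 (14.8%) were 4-fold higher in the submarginal zone. Over all 5800 genes reaching 10 TPM these shares were 9.45% and 12.4%, and over the 2622 of them with an informative product name 4.39% and 8.12%. In either direction, 29.6% of the members were 4-fold apart, against 21.8% of all genes and 12.5% of those with a product name. Of the 119 members whose higher region lay from 1 to under 10 TPM, 3 were 4-fold higher in the groove (2.52%) and 8 were so in the submarginal zone (6.72%). The background shares in that range, in the same order, were 1.49% and 2.2% over all 31909 genes. For the 6842 genes with a product name they were 1.14% and 2.09%. After adding 1 TPM, genes near 1 TPM cannot be 4-fold apart. Shares in this range, here and below, thus also depend on how levels spread within it, which was not matched. The median log2 ratio of the 54 members was -0.44, near the -0.55 of all 5800 genes. Median-of-ratios scaling, which moved log2 ratios by 0.36 toward the groove, changed the members' split to 10 groove-high and 6 submarginal-high, and that of all genes to 690 and 569, in place of 548 and 719. The families differed in how widely their members spread, and they are described in turn.

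**Figure D1:**
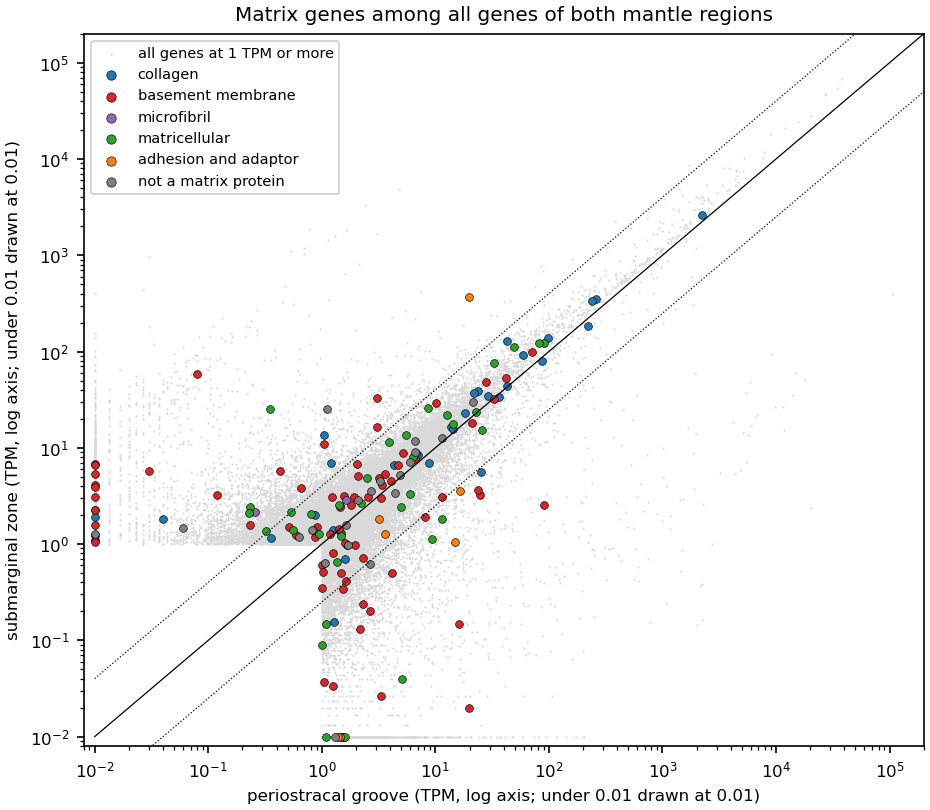
TPM in the periostracal groove (horizontal) and the submarginal zone (vertical), both on log axes, for all genes at 1 TPM or more in either region (grey) and the 173 such matrix-list members (coloured by family). The solid line marks equal values and the dotted lines a 4-fold difference of the unadjusted values. Abundant collagens lie along the solid line, whereas several basement membrane entries lie outside the dotted lines on either side.

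Collagens were the most abundant family and were nearly even between regions. They held 76.2% of the members' TPM in the groove, against 71% in the submarginal zone. Of 18 collagen entries reaching 10 TPM, 15 were less than 2-fold apart, which is 83.3%, against 57.2% of all genes and 64.6% of genes with a product name. Only COL8A was 4-fold higher in the groove and only 1 entry was 4-fold higher in the submarginal zone, so that 11.1% were 4-fold apart, which is not above the share of all genes.

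Most collagen transcript belonged to 1 gene. The COL6A entry TRINITY_DN490_c0_g1, a chain of the filament-forming collagen VI, had 2224 TPM in the groove, against 2629 TPM in the submarginal zone. It ranked at place 62 of all genes in the groove and held 48.5% of the members' TPM there, against 43.8% in the submarginal zone. Its log2 ratio of -0.24 became 0.12 with median-of-ratios scaling and 0.036 with upper-quartile scaling, so its direction turned with the scaling.

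The other 36 collagen VI entries were much lower. Together they had 248 TPM in the groove, against 294 TPM in the submarginal zone. The COL6A entry TRINITY_DN9184_c0_g1 had 86.4 TPM in the groove, against 79 TPM in the submarginal zone. The collagen VI alpha entry TRINITY_DN670_c0_g1 had 59.4 TPM in the groove, against 91.3 TPM in the submarginal zone. All 7 collagen VI entries reaching 10 TPM were less than 2-fold apart, with log2 ratios from -0.61 to 0.13, and 21 of the 37 stayed under 1 TPM in both regions.

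The 9 entries of fibrillar collagens, the chains of banded fibres, summed to lower TPM in the groove, with 370 TPM in the groove, against 515 TPM in the submarginal zone, and this direction held under the 3 alternative scalings. The collagen type I alpha entry (TRINITY_DN27237_c0_g2) had 238 TPM in the groove, against 338 TPM in the submarginal zone. The type II alpha entry (TRINITY_DN53_c0_g1) had 99 TPM in the groove, against 138 TPM in the submarginal zone. COL5AS (TRINITY_DN84_c0_g1) had 29.1 TPM in the groove, against 34.7 TPM in the submarginal zone. Their log2 ratios lay between -0.50 and -0.25, within the middle range of all genes reaching 10 TPM, whose quartiles were -1.07 and 0.12. COL5AS turned direction with median-of-ratios scaling (0.10 on the log2 scale) and upper-quartile scaling (0.022). A further entry with 3 or more listed names, led by collagen alpha-1(III) (TRINITY_DN457_c0_g1), had 259 TPM in the groove, against 354 TPM in the submarginal zone, and cannot be given to 1 type.

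Collagen IV forms the network of basement membranes. The COL4A entries had 23.5 TPM in the groove, against 38.5 TPM in the submarginal zone for TRINITY_DN1483_c0_g1, and 22 TPM in the groove, against 36.8 TPM in the submarginal zone for TRINITY_DN41929_c0_g1. Their log2 ratios, -0.69 and -0.71, were close to each other. Collagen XVIII (TRINITY_DN480_c0_g1), a basement membrane collagen that carries sugar chains, had 36.1 TPM in the groove, against 33.7 TPM in the submarginal zone.

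The remaining collagens held the differences. COL8A (TRINITY_DN16269_c0_g1), a short-chain network-forming collagen, had 25.4 TPM in the groove, against 5.55 TPM in the submarginal zone. Its log2 ratio of 2.01 was just past the threshold of 2, and with a pseudocount of 5 TPM it was 1.53. An entry led by collagen alpha-3(VI) that lists 13 names in all (TRINITY_DN32102_c0_g1) had 1.04 TPM in the groove, against 13.7 TPM in the submarginal zone, a log2 ratio of -2.85 that became -1.63 with a pseudocount of 5 TPM.

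The 2 entries named collagen-like protein-2 did not share a ratio. TRINITY_DN33671_c0_g1 had 221 TPM in the groove, against 183 TPM in the submarginal zone, whereas TRINITY_DN13031_c0_g2 had 42.8 TPM in the groove, against 130 TPM in the submarginal zone. Their log2 ratios were 0.27 and -1.57. COL22A had 8.83 TPM in the groove, against 6.97 TPM in the submarginal zone, and COL13A, a membrane-anchored collagen, had 6.98 TPM in the groove, against 8.32 TPM in the submarginal zone.

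**Figure D2:**
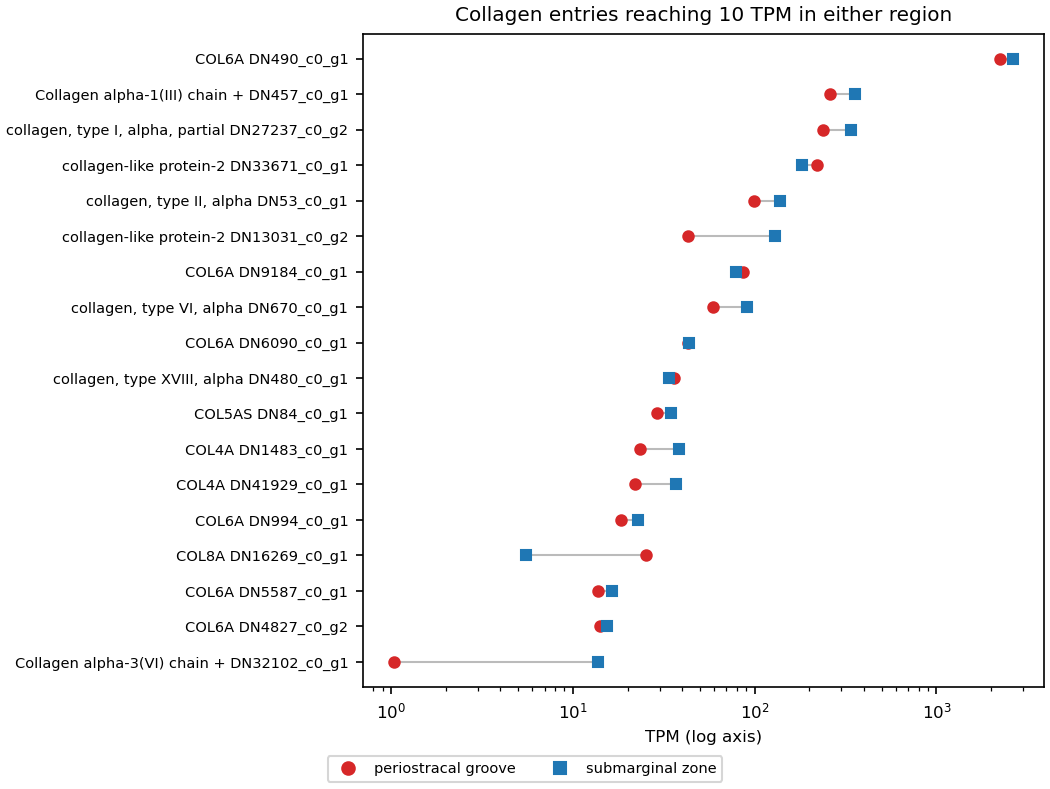
TPM (log axis) of the 18 collagen entries reaching 10 TPM in either region, in the periostracal groove (circles) and the submarginal zone (squares), ordered by mean level, with + marking entries that list 3 or more protein names. The symbols nearly coincide for most entries, and COL8A and the entry led by collagen alpha-3(VI) stand apart in opposite directions.

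Basement membrane entries were the family with the largest number of 4-fold differences, in both directions. The share was larger among adhesion and adaptor entries, 66.7%, but only 3 of those reached 10 TPM. Most entries of the basement membrane family were hemicentins or list several names, and collagens IV and XVIII were counted as collagens. Of its 16 entries reaching 10 TPM, 6 were named hemicentin and 7 list several names. Laminin, nidogen-2-like and sushi, nidogen and EGF-like names gave 1 each. Of the 16, 5 were 4-fold higher in the groove and 4 were so in the submarginal zone. That is 56.2% in all, against 21.8% of all genes and 12.5% of genes with a product name. With median-of-ratios or upper-quartile scaling the counts of 5 and 4 became 5 and 2 of 15. Among the 58 with a higher region from 1 to under 10 TPM, 1 was 4-fold higher in the groove (1.72%) and 8 were so in the submarginal zone (13.8%). Over all genes in that range these shares were 1.49% and 2.2%. The family's summed TPM was nonetheless similar, 516 in the groove, against 581 in the submarginal zone, and its log2 ratio of -0.17 turned positive under both scalings.

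Hemicentins made up 69 of these entries, and different entries were high in each region. Of 6 reaching 10 TPM, 3 were 4-fold higher in the groove, 2 were 4-fold higher in the submarginal zone, and 1 was less than 2-fold apart. The share 4-fold apart was thus 83.3%, against 21.8% of all genes and 12.5% of genes with a product name. The hemicentin sum hid this split, since all 69 added up to 253 TPM in the groove, against 255 TPM in the submarginal zone.

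The hemicentin with the largest log2 ratio toward the groove (4.68), TRINITY_DN1355_c1_g1, had 89.7 TPM in the groove, against 2.54 TPM in the submarginal zone. TRINITY_DN4293_c0_g1 had 24.6 TPM in the groove, against 3.23 TPM in the submarginal zone. TRINITY_DN4176_c0_g1 had 16.1 TPM in the groove, against 0.147 TPM in the submarginal zone. With a pseudocount of 0.1 TPM its log2 ratio, 6.03, was above the 5.09 of TRINITY_DN1355_c1_g1. Together these 3 groove-high hemicentins gave 130 TPM in the groove, against 5.92 TPM in the submarginal zone. With a pseudocount of 5 TPM, TRINITY_DN4293_c0_g1 was no longer 4-fold apart (1.84 on the log2 scale).

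Toward the submarginal zone, the entry named Hemicentin-1 (TRINITY_DN5901_c0_g1) had 0.08 TPM in the groove, against 59.1 TPM in the submarginal zone. Its log2 ratio of -5.80, after adding 1 TPM, was the largest in size of any member. Without a pseudocount it was 739-fold apart, less than the 981-fold of the nidogen-2-like entry described below. TRINITY_DN65598_c0_g1, also named Hemicentin-1, had 3.04 TPM in the groove, against 16.3 TPM in the submarginal zone. Its log2 ratio of -2.10 was no longer 4-fold with median-of-ratios scaling (-1.79), upper-quartile scaling (-1.86) or a pseudocount of 5 TPM (-1.41). The most abundant hemicentin, TRINITY_DN1296_c0_g1, had 70.4 TPM in the groove, against 100 TPM in the submarginal zone, a log2 ratio of -0.50.

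Low hemicentins also went both ways. Of 26 entries whose higher region lay from 1 to under 10 TPM, 1 was 4-fold higher in the groove and 4 were so in the submarginal zone, 3.85% and 15.4%. Over all genes in that range the shares were 1.49% and 2.2%, and over those with a product name 1.14% and 2.09%. Levels within the range were not matched, so these shares are only a rough guide. The HMCN entry TRINITY_DN6072_c0_g1 had 0.01 TPM in the groove, against 6.84 TPM in the submarginal zone. Another, TRINITY_DN22608_c0_g1, was listed at 0 in the groove and had 4.1 TPM in the submarginal zone. Of the 32 hemicentin entries at 1 TPM or more in either region, 4 (12.5%) were listed at 0 in the groove and 1 (3.13%) was listed at 0 in the submarginal zone. Among the 4, TRINITY_DN22608_c0_g1 and TRINITY_DN22608_c0_g2 share a cluster number, so they may be fragments of the same gene. Over all 37709 genes at that level the shares were 7.59% and 5.82%, and over the 9464 with a product name 3.10% and 1.46%.

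Opposite directions also occurred within 1 Trinity cluster. TRINITY_DN1117_c0_g2 had 3.32 TPM in the groove, against 0.0267 TPM in the submarginal zone, whereas TRINITY_DN1117_c1_g1 had 0.01 TPM in the groove, against 5.36 TPM in the submarginal zone. Both are named hemicentin, and theirs was the only cluster number with members 4-fold apart in both directions among members reaching 1 TPM. In the cluster of TRINITY_DN4176_c0_g1, TRINITY_DN4176_c1_g1 had the same order, with 1.5 TPM in the groove, against 0.01 TPM in the submarginal zone, and the third entry lay closer together, with 1 TPM in the groove, against 0.607 TPM in the submarginal zone.

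Laminins, the cross-shaped proteins that start basement membrane assembly, differed from entry to entry. LAMA1_2, an alpha chain entry (TRINITY_DN1782_c0_g2), had 3.09 TPM in the groove, against 33.1 TPM in the submarginal zone, a log2 ratio of -3.06. The beta 1 chain had 6.61 TPM in the groove, against 7.64 TPM in the submarginal zone. The alpha 3/5 chain had 4.69 TPM in the groove, against 6.64 TPM in the submarginal zone.

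Other alpha chain entries had the opposite order at low levels. LAMA4 had 4.13 TPM in the groove, against 0.503 TPM in the submarginal zone, and laminin alpha 1/2 had 2.29 TPM in the groove, against 0.713 TPM in the submarginal zone. The other 4 entries named LAMA1_2 had from 0.617 to 0.933 TPM in the groove, against from 0 to 0.0367 TPM in the submarginal zone. Each of those 4 was under 1 TPM in both regions. None of the 9 laminin entries was named as a gamma chain.

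Nidogen links laminin to collagen IV. The entry nidogen-2-like (TRINITY_DN5743_c0_g1) had 19.6 TPM in the groove, against 0.02 TPM in the submarginal zone, a log2 ratio of 4.34. Perlecan, a heparan sulfate proteoglycan of the same sheet, had 1 entry, and it was listed at 0 in both regions. Entries named sushi, nidogen and EGF-like domain-containing protein 1 are another protein with a nidogen domain. The most abundant of the 6, TRINITY_DN3562_c0_g1, had 28.2 TPM in the groove, against 48.1 TPM in the submarginal zone, the opposite order to nidogen-2-like. Its log2 ratio of -0.75 lay within the quartiles of all genes reaching 10 TPM, -1.07 and 0.12. Lower entries of this name went both ways. TRINITY_DN5622_c0_g1 had 2.67 TPM in the groove, against 0.203 TPM in the submarginal zone, and TRINITY_DN24254_c0_g1 had 0 TPM in the groove, against 3.9 TPM in the submarginal zone.

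**Figure D3:**
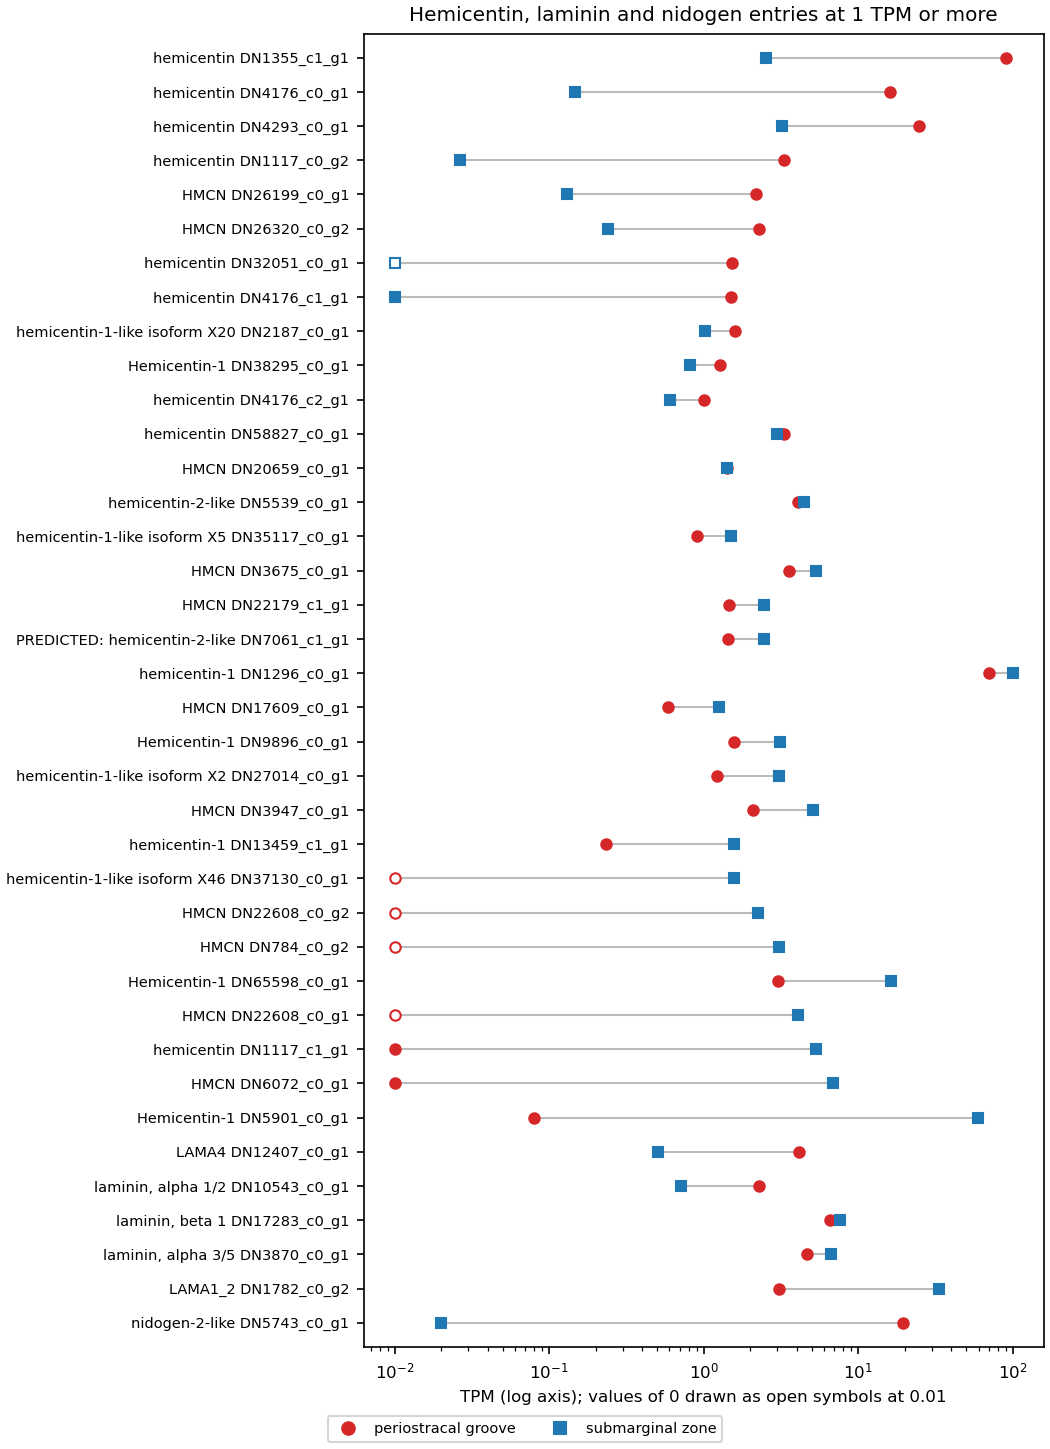
TPM (log axis) of the hemicentin, laminin and nidogen entries at 1 TPM or more in either region, in the periostracal groove (circles) and the submarginal zone (squares), with values of 0 as open symbols at 0.01. Within each family the entries run from groove-high at the top to submarginal-high at the bottom, and the nidogen-2-like entry in the last row has 19.6 TPM in the groove, against 0.02 TPM in the submarginal zone.

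A further 42 entries list hemicentin or nidogen among several names. Of these, 40 also list coadhesin and 39 a thrombospondin, proteins with thrombospondin type-1 repeats. Of 7 reaching 10 TPM, 1 was 4-fold apart in each direction. That is 28.6% in all, near the 21.8% of all genes, while genes with a product name had 12.5%. The entry led by Hemicentin-1, TRINITY_DN5817_c1_g1, had 23.9 TPM in the groove, against 3.6 TPM in the submarginal zone. Its cluster neighbour TRINITY_DN5817_c0_g1 had the same order, with 11.6 TPM in the groove, against 3.07 TPM in the submarginal zone. The entry led by coadhesin, TRINITY_DN4236_c1_g1, had 1.04 TPM in the groove, against 10.9 TPM in the submarginal zone. With median-of-ratios or upper-quartile scaling it no longer reached 10 TPM. With a pseudocount of 5 TPM neither TRINITY_DN5817_c1_g1 (1.75 on the log2 scale) nor TRINITY_DN4236_c1_g1 (-1.39) was 4-fold apart. The most abundant of the kind, TRINITY_DN32659_c0_g5, had 42.2 TPM in the groove, against 53.1 TPM in the submarginal zone, and its direction turned with median-of-ratios scaling (0.030 on the log2 scale, in place of -0.32).

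**Figure D4:**
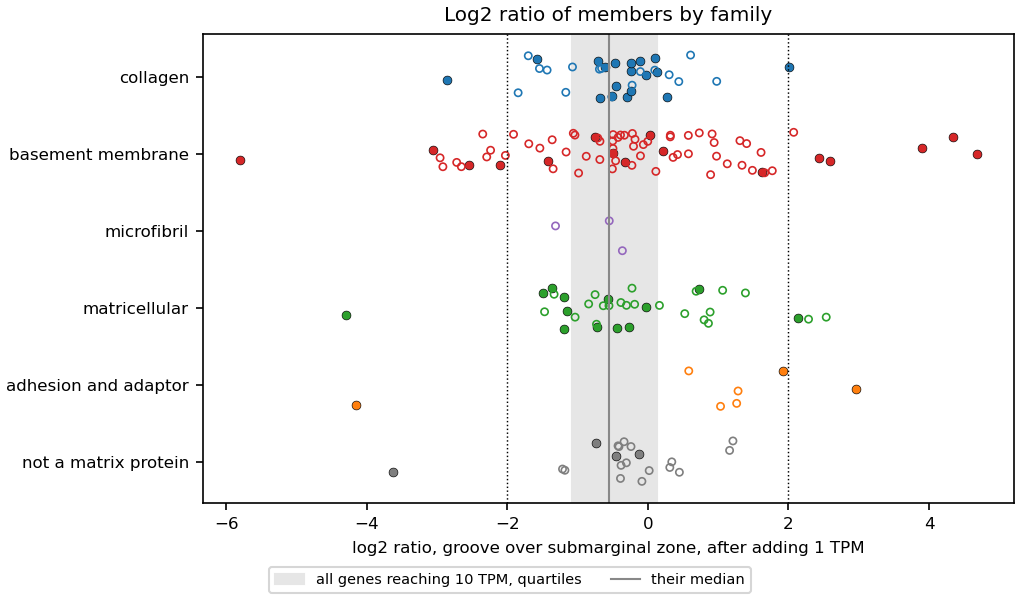
Log2 ratio of groove over submarginal zone after adding 1 TPM (horizontal) for each member at 1 TPM or more, by family, with filled points for members reaching 10 TPM and open points for lower ones. The grey band and line give the quartiles and median of all genes reaching 10 TPM (-1.07, -0.55 and 0.12), and the dotted lines mark the 4-fold threshold. Collagens cluster near the band and basement membrane entries extend from -5.80 to 4.68.

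Microfibril proteins, which form the fine elastic filaments of the matrix, were low. None of the 6 entries reached 10 TPM. The entry led by EGF-containing fibulin-like extracellular matrix protein 1 (TRINITY_DN2160_c0_g1) had 6.7 TPM in the groove, against 8.9 TPM in the submarginal zone. The fibrillin symbol FBN2_3 had 1.62 TPM in the groove, against 2.84 TPM in the submarginal zone for TRINITY_DN1482_c0_g1, and 0.26 TPM in the groove, against 2.13 TPM in the submarginal zone for TRINITY_DN28079_c0_g3.

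Among matricellular entries, SPARC was abundant and nearly even. SPARC, a collagen-binding and calcium-binding glycoprotein (TRINITY_DN2989_c0_g1), had 90.1 TPM in the groove, against 122 TPM in the submarginal zone, a log2 ratio of -0.43. This is close to the ratios of the type I and type II collagens, -0.50 and -0.47, but also near the median of all genes reaching 10 TPM, -0.55. The other 2 SPARC-like entries were low, with 1.08 and 1.01 TPM in the groove, against 0.147 and 0.09 TPM in the submarginal zone.

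Thrombospondin entries went both ways, and the 3 entries named tenascin alone had higher TPM in the groove, at low levels. The thrombospondin 2/3/4/5 entry TRINITY_DN21602_c0_g1 had 9.43 TPM in the groove, against 1.14 TPM in the submarginal zone, just short of the 10 TPM minimum, with a log2 ratio of 2.29. Another thrombospondin 2/3/4/5 entry, TRINITY_DN18387_c0_g1, was lower in the groove, at 0.557 TPM in the groove, against 1.42 TPM in the submarginal zone. Thrombospondin type-1 domain-containing protein 4 (TRINITY_DN3935_c0_g1), which carries the repeat but is no thrombospondin, had 25.7 TPM in the groove, against 15.2 TPM in the submarginal zone. Tenascin entries had 5.98 and 4.98 TPM in the groove, against 3.34 and 2.43 TPM in the submarginal zone, and tenascin-R-like had 1.62 TPM in the groove and was listed at 0 in the submarginal zone. Without Thrombospondin type-1 domain-containing protein 4, 4 of the 8 thrombospondin entries were higher in the groove and 4 were lower. Their sums were 11.9 TPM in the groove, against 3.9 TPM in the submarginal zone. Most of the groove sum, 9.43 TPM, came from TRINITY_DN21602_c0_g1 alone. The 3 tenascins summed to 12.6 TPM in the groove, against 5.77 TPM in the submarginal zone, a direction that held under the 3 alternative scalings.

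Most matricellular entries, 43 of 58, were fibrinogen-domain proteins whose list of names includes a tenascin beside ficolins, which are secreted lectins. They had lower TPM in the groove, with 275 TPM in the groove, against 492 TPM in the submarginal zone in sum, and this direction held under the 3 alternative scalings. The most abundant, TRINITY_DN753_c0_g1, had 82.1 TPM in the groove, against 122 TPM in the submarginal zone. TRINITY_DN10556_c1_g1 had 48.8 TPM in the groove, against 113 TPM in the submarginal zone.

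A pair of these entries that share 23 of the 30 names listed by either went opposite ways. TRINITY_DN65252_c0_g1 had 0.35 TPM in the groove, against 25.6 TPM in the submarginal zone, whereas TRINITY_DN10755_c0_g1 had 11.5 TPM in the groove, against 1.83 TPM in the submarginal zone. With a pseudocount of 5 TPM, TRINITY_DN10755_c0_g1 was no longer 4-fold apart (1.27 on the log2 scale). The other 9 reaching 10 TPM were less than 4-fold apart. Of 13 matricellular entries reaching 10 TPM, 15.4% were thus 4-fold apart, between the shares of genes with a product name and of all genes.

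The adhesion and adaptor entries held the most abundant of the 16 members that were 4-fold apart. Sushi, von Willebrand factor type A, EGF and pentraxin domain-containing protein 1-like (TRINITY_DN873_c0_g1), a large secreted adhesion protein, had 19.6 TPM in the groove, against 365 TPM in the submarginal zone. Its log2 ratio was -4.15, and in the submarginal zone it ranked at place 247 of all genes. The family's sum, 63.9 TPM in the groove, against 378 TPM in the submarginal zone, turned round without this entry, when it was 44.3 TPM in the groove, against 12.2 TPM in the submarginal zone.

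The 2 EGF-repeat entries reaching 10 TPM that list a von Willebrand name had the opposite order. The entry led by protein eyes shut homolog (TRINITY_DN5173_c0_g1), which belongs with extracellular EGF-repeat proteins, had 14.9 TPM in the groove, against 1.04 TPM in the submarginal zone, and its log2 ratio of 2.96 became 1.72 with a pseudocount of 5 TPM. The entry led by Fibropellin-3 (TRINITY_DN3434_c0_g1) had 16.3 TPM in the groove, against 3.58 TPM in the submarginal zone. Its log2 ratio of 1.92 was just under the threshold and passed it with pseudocount 0.1 (2.16), median-of-ratios scaling (2.23) and upper-quartile scaling (2.16).

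Fibronectin is the adhesive glycoprotein that integrins bind in vertebrates, and 3 low entries were named fibronectin or fibronectin-like. They had 1.43, 1.4 and 0.88 TPM in the groove, against 0, 0 and 0.16 TPM in the submarginal zone. The first of these shares its Trinity cluster number with the tenascin-R-like entry above, so the pair may be fragments of the same gene. A name alone does not show that an entry is fibronectin itself. Matrilin-3, a cartilage matrix adaptor in vertebrates, had 1 entry and was listed at 0 in both regions.

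Of the 28 entries that the name rule reads but that are no matrix component, 19 were ADAMTS proteases (metalloproteases that carry thrombospondin motifs and cut matrix proteins). None of these reached 10 TPM, and the highest, TRINITY_DN3426_c0_g1, had 5.93 TPM in the groove, against 7.19 TPM in the submarginal zone. The lamin-B receptor, a protein of the nuclear envelope, had 1.12 TPM in the groove, against 25.2 TPM in the submarginal zone and accounts for 1 of the 8 members counted as higher in the submarginal zone. LAMP1_2, of the lysosome membrane, had 21.4 TPM in the groove, against 29.7 TPM in the submarginal zone. The synaptic adhesion protein named leucine-rich repeat and fibronectin type-III domain-containing protein 5 had 11.5 TPM in the groove, against 12.7 TPM in the submarginal zone, and its direction turned with median-of-ratios (0.21) and upper-quartile scaling (0.13).

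**Figure D5:**
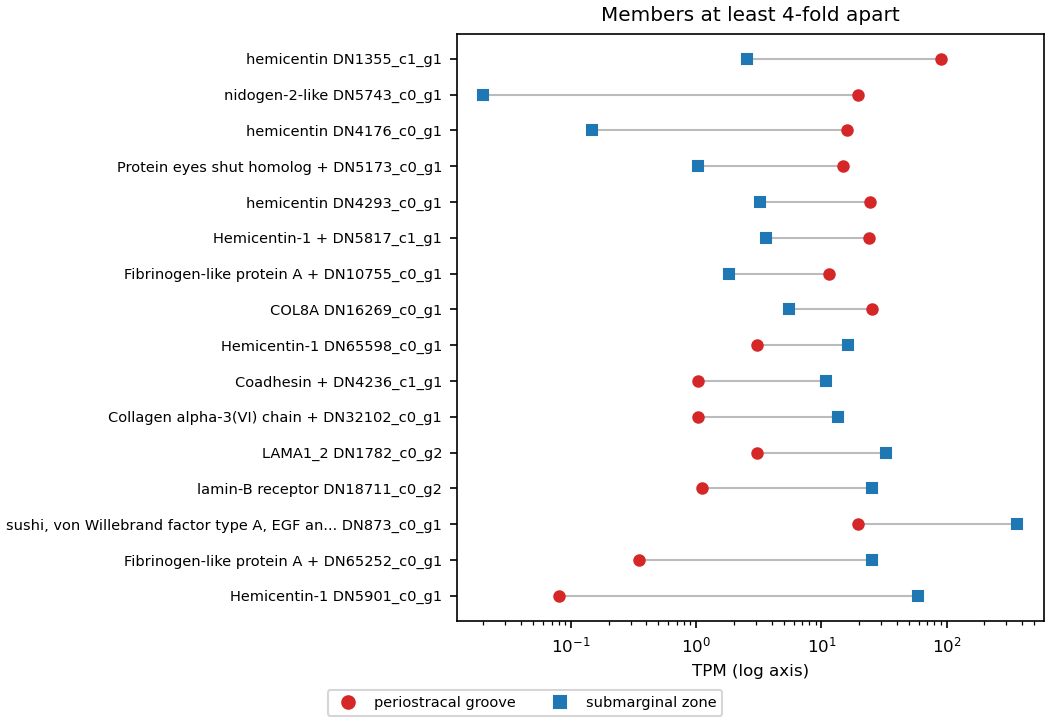
TPM (log axis) of the 16 members at least 4-fold apart, in the periostracal groove (circles) and the submarginal zone (squares), ordered by log2 ratio, with + marking entries that list 3 or more protein names. The upper 8 were higher in the groove and the lower 8 in the submarginal zone, and hemicentins stand at both ends.

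Genes that make, bind or cut the matrix were compared by lists of names. The lists were short, and their counts stand beside 21.8% of all genes reaching 10 TPM and 12.5% of those with a product name. Of 9 collagen processing genes, 2 reached 10 TPM and 1 was 4-fold higher in the groove. That gene, the prolyl hydroxylase subunit P4HA (TRINITY_DN6829_c0_g1), which modifies collagen proline, had 15.6 TPM in the groove, against 0.577 TPM in the submarginal zone. The other P4HA entry, TRINITY_DN2037_c1_g1, had 7.95 TPM in the groove, against 13.1 TPM in the submarginal zone.

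Genes of the matrix receptor list were nearly even. The name list also read disintegrins, which are no receptors, and gave 10 genes reaching 10 TPM. Without those names, 9 genes reached 10 TPM, and none was 4-fold apart under either version or under the 3 alternative scalings. The share 4-fold apart was 21.8% of all genes and 12.5% of those with a product name, so none of 9 says little by itself. All 9 were less than 2-fold apart, against 57.2% of all genes and 64.6% of genes with a product name. ITGB1 (TRINITY_DN3845_c0_g1), the integrin beta subunit of many collagen and laminin receptors, had 66.1 TPM in the groove, against 58.3 TPM in the submarginal zone. The other entries named ITGB1 had the opposite order. TRINITY_DN4213_c0_g1 had 17.4 TPM in the groove, against 28.4 TPM in the submarginal zone. TRINITY_DN3711_c0_g1 had 9.77 TPM in the groove, against 11.6 TPM in the submarginal zone. SDC2, a syndecan, had 57.4 TPM in the groove, against 79.6 TPM in the submarginal zone, and SDCBP, a cytoplasmic partner of syndecans, had 68.3 TPM in the groove, against 77.7 TPM in the submarginal zone. DAG1, the dystroglycan that binds laminin, had 10.5 TPM in the groove, against 8.23 TPM in the submarginal zone. The log2 ratios of these 9 genes, which include SDCBP although it is no receptor itself, ran from -0.67 to 0.32. Of these ratios, 4 were positive and 5 negative. Of the 18 listed genes from 1 to under 10 TPM none was 4-fold apart, against 3.69% of all genes in that range.

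None of the 5 focal adhesion adaptors reaching 10 TPM was 4-fold apart, and talin (TLN), which links integrins to actin, had 21.3 TPM in the groove, against 41.2 TPM in the submarginal zone. LIMS1_2 had 11 TPM in the groove, against 14.8 TPM in the submarginal zone. The list of matrix proteases and inhibitors had 58 entries, of which 33 were also members of the matrix list. Of the 6 reaching 10 TPM, 1 was 4-fold higher in the submarginal zone, the meprin MEP1B, with 0.01 TPM in the groove, against 406 TPM in the submarginal zone. Matrix metalloproteinase-14 had 68 TPM in the groove, against 165 TPM in the submarginal zone. Matrix proteins with names outside the rule had 2 genes reaching 10 TPM. TGFBI had 74 TPM in the groove, against 147 TPM in the submarginal zone, and fasciclin 1 had 18.2 TPM in the groove, against 8.58 TPM in the submarginal zone.

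Markers of other tissues differed between the same profiles. Muscle genes summed to 7653 TPM in the groove, against 21804 TPM in the submarginal zone over 77 entries, with 1 of 19 reaching 10 TPM 4-fold higher in each direction. Germ-cell genes summed to 56.9 TPM in the groove, against 535 TPM in the submarginal zone over 18 entries, with 8 of 10 reaching 10 TPM 4-fold higher in the submarginal zone, against none in the groove. Cilia genes summed to 445 TPM in the groove, against 1345 TPM in the submarginal zone over 109 entries, with 7 of 30 reaching 10 TPM 4-fold higher in the submarginal zone, against none in the groove. The cilia count became 4 of 28 with median-of-ratios or upper-quartile scaling. Haemocyte genes summed to 2199 TPM in the groove, against 2590 TPM in the submarginal zone over 25 entries, with 3 of 18 reaching 10 TPM 4-fold higher in the groove and 1 that was so in the submarginal zone. Neuron genes summed to 201 TPM in the groove, against 287 TPM in the submarginal zone over 71 entries, with none of 5 reaching 10 TPM 4-fold apart. In either direction, 10.5% of muscle, 80% of germ-cell, 23.3% of cilia and 22.2% of haemocyte genes reaching 10 TPM were 4-fold apart. All genes had 21.8%, and those with a product name 12.5%. Higher in the submarginal zone, by any size, were 17 of 19 muscle, 10 of 10 germ-cell and 30 of 30 cilia genes. So were 13 of 18 haemocyte and 4 of 5 neuron genes, and 4201 of all 5800 genes. Genes at 0 in the groove with 1 TPM or more in the submarginal zone numbered 3 for muscle, 2 for cilia, 1 for neurons and 0 for haemocytes and germ cells. The reverse numbered 4 for muscle, 1 for cilia, 1 for neurons and 0 for haemocytes and germ cells. The part of these tissues in the matrix values was not tested.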

How the data were processed

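Per the labels' protocols, DNase I removed genomic DNA from total RNA and libraries were made with the Illumina TruSeq RNA kit. The submitters' processing notes name fastp. Assembler, quantifier and annotation source were not given in the sources used here, nor was a genome build. The authors deposited 1 TPM value per assembled gene and region, which added up to 999875 for the groove, against 999820 for the submarginal zone. Every value was a multiple of 1/300 (within 0.001 after multiplying by 300), the step of a mean of 3 values with 2 decimals. The design text names 3 biological replicates, so each value was taken as the authors' mean over replicates. Read depth is unknown.

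Genes with empty cells, 5 in all, were not used. Quotes and trailing organism names were removed from product names, and some long names end mid-word as deposited. Adding the 1 TPM pseudocount before the log2 ratio makes differences of low genes look smaller. An informative product name is one that is not hypothetical, uncharacterised or unnamed.

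The members, families, gene lists and settings were chosen with earlier results of these data known. Every member past the threshold, the 3 most abundant of each family and the 10 most abundant overall were named. Of each related list, up to 6 genes past the threshold and the 2 most abundant were named. Members named beside these were chosen after their values were seen. They are the lower collagens, laminins, hemicentins, tenascins, thrombospondins, fibronectins and SPARC-like entries, the sushi, nidogen and EGF-like entries, the cluster neighbours, and the receptors ITGB1 and DAG1. Alternatives were other pseudocounts, minimums, folds, scalings and readings of names. The call rule was tested on simulated data. Tools were Python 3.11.15 with pandas 2.3.3, numpy 2.4.6 and, for plots, matplotlib 3.10.9.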

Additional observations from a re-analysis of the deposited data

How the results depend on the processing

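The counts of members 4-fold apart (8 higher in the groove, 8 higher in the submarginal zone) changed most with the minimum, the fold and the pseudocount. In the same order they were 3 and 5 with pseudocount 5, 10 and 13 with a minimum of 5 TPM, 4 and 5 with a minimum of 20 TPM, 11 and 16 without a minimum, 10 and 15 at 2-fold and 3 and 5 at 8-fold. They stayed within 1.5 times under pseudocount 0.1, the 3 scalings and the 2 other readings of names. Reading only the first listed name, chosen after seeing the data, gave 6 and 6.

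The median log2 ratio of -0.44 turned to 0.030 with median-of-ratios scaling. It was -0.11 with upper-quartile scaling, -0.39 with the total without the 10 most abundant genes, -0.41 with pseudocount 5, -0.34 over members averaging 1 TPM or more and -0.22 over all detected members. It was -0.38 without names of no matrix protein and -0.38 by the first name. The log2 ratio of summed TPM, -0.39, was -0.027 with median-of-ratios scaling, -0.11 with upper-quartile scaling, -0.33 without the 10 most abundant genes and -0.38 without names of no matrix protein. It was -0.36 by the first name and -0.51 without the leading COL6A entry.

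Of the 16 members past the threshold, 8 were no longer past it with pseudocount 5, and each is named in the report with its value. Of the 173 members at 1 TPM or more, 22 changed sign under at least 1 of the 3 scalings. Among those named by rule, these were the leading COL6A entry (0.12 and 0.036 with median-of-ratios and upper-quartile scaling), TRINITY_DN32659_c0_g5 (0.030 with median-of-ratios scaling) and the leucine-rich repeat protein (0.21 and 0.13 with both). Others described that did so with both were COL5AS (0.10 and 0.022), COL13A (0.094 and 0.021), laminin beta 1 (0.13 and 0.060) and the ADAMTS entry TRINITY_DN3426_c0_g1 (0.073 and 0.00040). The cause was not tested. No paired analysis was possible because each region has 1 profile. Leaving out a replicate was not possible for the same reason.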
